A study of Mus musculus with 12 samples.

Results

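The 52 genes described here are the collagens and the enzymes that modify and crosslink their lysines. They were chosen by symbol, though with earlier results of these data known, out of 32772 genes in the deposited counts. The set holds every gene named as a collagen alpha chain (44 genes), the lysyl oxidases Lox and Loxl1 to Loxl4 (5 genes) and the lysyl hydroxylases Plod1 to Plod3 (3 genes). The count table of the diet comparison lists 51 of them (all but Col9a1), the table of the injection comparison lists 51 (all but Col4a4), and 50 are in both. By class there were 11 fibrillar chains, 6 type IV chains of basement membranes, 9 fibril-associated chains (FACIT), 6 type VI chains, 3 network-forming chains, 2 multiplexins, 4 transmembrane chains and 3 others.

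RNA was sequenced from C57BL/6N mice, an inbred strain, in 4 groups of 3 libraries. The HFD PCN group (libraries 5, 11 and 27) was fed a high-fat diet and given PCN (pregnenolone carbonitrile, a steroid that activates the rodent pregnane X receptor) intraperitoneally at 50 mg/kg, once a day for 4 days. The HFD Vehicle group (libraries 23, 50 and 55) had the same diet and injections of the vehicle, 30% DMSO in corn oil. The HFD group (libraries 4, 30 and 38) had the high-fat diet and the Chow group (libraries 8, 17 and 19) regular chow, with no treatment stated for either. Both diets began at 6 weeks of age and lasted 18 weeks. The sources used here do not give the sex of the mice or the fat content of the diet, and nothing there says that each library is a separate animal, so p-values cover only the spread among the libraries, which may be technical.

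Collagens are secreted proteins whose chains wind into a triple helix. Fibrillar collagens such as types I, III and V form the banded fibrils of interstitial matrix, type IV forms the meshwork of the basement membranes around adipocytes and capillaries, type VI forms beaded filaments close to the adipocyte surface, and FACIT collagens sit on the surface of fibrils. Lysyl hydroxylases modify lysines inside the cell, lysyl oxidases oxidise them outside it, and the products join into the crosslinks that stiffen a fibril. In white adipose tissue the collagens are made mainly by stromal cells, with basement membrane chains also made by adipocytes and endothelium, and collagen accumulation is a known feature of adipose tissue in obesity.

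The tissue is gonadal white adipose tissue by the title of the series, but duodenum by the source label. The summed level of 8 adipocyte markers was 7155 to 14503 CPM (counts scaled to a common library total) in HFD PCN, 6312 to 13417 CPM in HFD Vehicle, 7169 to 8949.7 CPM in HFD and 15585 to 20649 CPM in Chow. That of 6 intestinal epithelial markers was at most 54.9 CPM, most of it Lgals4, and Epcam, which marks epithelium, was at or near 0 in every library. The 5 epididymal markers, where listed, summed to at most 0.362 CPM. Library totals ranged from 11090117 to 27408092 counts, of which the 52 genes took 0.674% to 2.18%. Mitochondrial ribosomal RNA took 28.7% of the counts of Chow 19, 9.66% of Chow 17, 7.49% of HFD Vehicle 50, 6.05% of Chow 8 and at most 2.54% of the others. HFD Vehicle 50 stood apart from its group for many of the genes described here, so some of the results that rest on it are also given without it. In bulk tissue, fewer cells of a type and less RNA per cell cannot be told apart, which holds for every level given here.

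Promoter sequences were taken from RefSeq (build GRCm38.p6), as windows of 300 bases from 250 before to 50 after the annotated start, and matched 38 of the 52 genes, with 41 windows. Those printed here belong to 2 pairs of type IV genes that lie head to head and to 3 fibrillar genes whose levels differed between the diets in opposite directions. Col4a1 and Col4a2 start 22 bases inside each other on opposite strands of chromosome 8, so that their windows, chr8:11312777-11313076 on the minus strand and chr8:11312555-11312854 on the plus strand, share 78 bases, here in capitals.
Col4a1: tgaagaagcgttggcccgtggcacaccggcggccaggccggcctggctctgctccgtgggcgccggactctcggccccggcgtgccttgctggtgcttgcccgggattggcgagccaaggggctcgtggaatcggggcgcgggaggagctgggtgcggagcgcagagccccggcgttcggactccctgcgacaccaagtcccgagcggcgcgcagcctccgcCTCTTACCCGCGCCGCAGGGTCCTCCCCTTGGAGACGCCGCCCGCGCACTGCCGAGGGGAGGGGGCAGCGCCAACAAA
Col4a2: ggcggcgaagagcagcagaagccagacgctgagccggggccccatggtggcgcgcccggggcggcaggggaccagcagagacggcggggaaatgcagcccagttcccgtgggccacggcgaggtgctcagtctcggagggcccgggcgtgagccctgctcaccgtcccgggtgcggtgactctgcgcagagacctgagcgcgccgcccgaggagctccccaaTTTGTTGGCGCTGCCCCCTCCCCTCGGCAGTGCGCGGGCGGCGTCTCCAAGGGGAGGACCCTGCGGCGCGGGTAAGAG
Col4a4 and Col4a3 start 71 bases apart, also head to head, on chromosome 1. In the Col4a4 window (chr1:82586800-82587099, minus strand) the capitals mark the 71 bases between the starts of both genes.
Col4a4: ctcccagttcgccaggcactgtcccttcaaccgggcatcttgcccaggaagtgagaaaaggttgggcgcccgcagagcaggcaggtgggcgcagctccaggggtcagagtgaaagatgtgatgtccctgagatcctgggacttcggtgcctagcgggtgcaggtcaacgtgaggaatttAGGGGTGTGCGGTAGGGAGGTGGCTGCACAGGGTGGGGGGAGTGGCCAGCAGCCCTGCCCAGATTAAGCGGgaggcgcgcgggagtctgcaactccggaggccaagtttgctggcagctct
The RefSeq start of Col1a2 lies inside the gene as GENCODE annotates it, so its window lies downstream of the gene start given with its levels, whereas for the others printed here both starts coincide. In the windows of Col1a2 (chr6:4505368-4505667, plus strand), Col3a1 (chr1:45311288-45311587, plus strand) and Col5a3 (chr9:20815018-20815317, minus strand), capitals mark CCAAT read on either strand, the motif of a trimeric factor (NF-Y) known to bind type I collagen promoters.
Col1a2: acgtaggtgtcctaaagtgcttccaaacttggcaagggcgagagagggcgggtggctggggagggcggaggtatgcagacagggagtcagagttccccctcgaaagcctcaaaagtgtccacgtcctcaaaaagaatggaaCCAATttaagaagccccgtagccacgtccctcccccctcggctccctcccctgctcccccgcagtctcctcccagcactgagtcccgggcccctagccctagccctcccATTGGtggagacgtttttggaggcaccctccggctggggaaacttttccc
Col3a1: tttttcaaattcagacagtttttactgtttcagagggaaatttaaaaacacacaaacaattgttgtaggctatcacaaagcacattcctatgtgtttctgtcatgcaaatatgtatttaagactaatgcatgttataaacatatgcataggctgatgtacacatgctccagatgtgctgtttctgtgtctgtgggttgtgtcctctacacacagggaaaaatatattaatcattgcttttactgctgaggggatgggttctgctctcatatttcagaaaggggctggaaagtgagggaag
Col5a3: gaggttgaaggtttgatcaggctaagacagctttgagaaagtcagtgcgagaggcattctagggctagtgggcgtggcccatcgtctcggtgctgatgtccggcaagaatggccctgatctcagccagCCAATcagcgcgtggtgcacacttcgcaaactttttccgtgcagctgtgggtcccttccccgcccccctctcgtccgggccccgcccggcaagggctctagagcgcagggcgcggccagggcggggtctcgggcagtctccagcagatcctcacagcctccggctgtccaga
CCAAT occurred 2 times in the Col1a2 window, 0 times in that of Col3a1 and 1 time in that of Col5a3. It was in 34.1% of the 41 windows of these genes and in 37.4% of all 32851 windows, counted on both strands. GGGCGG, the core of a GC box, was in 61.0% of the 41 windows and in 35.7% of all windows. Matches of letters are a description and are not binding sites.

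Collagen and crosslinking genes were called in both directions between the diets. In HFD against Chow the fibrillar chains of types I and III, the type V chain Col5a2 and the type VI chains Col6a3 and Col6a5 were higher. So were both chains of type VIII, the FACIT Col14a1 and the lysyl oxidases Loxl1, Loxl2 and Loxl3. These rises ran from 1.94-fold for Col1a1 to 10.2-fold for Col6a5. Also higher were the basement membrane chain Col4a5 (1.46-fold) and the low Col24a1, which entered the test only through its HFD libraries. The basement membrane chains Col4a3 and Col4a4, best known from kidney, were 11.7-fold and 10.7-fold lower, and the fibrillar Col5a3 was 2.19-fold lower. The major type IV chains Col4a1 and Col4a2, Col5a1, Lox and the 3 lysyl hydroxylases did not pass the test. Of the 52 genes, 41 passed the filter on low counts, and of these 14 were higher, 8 lower and 19 did not pass, by edgeR's quasi-likelihood test with Benjamini-Hochberg adjustment over all genes tested (threshold 0.05). Over all 16216 genes tested 59.8% were called, 29.8% higher and 30% lower, beside 53.7% of these 41 genes, so the share called here was close to that of all genes. At an unadjusted p under 0.05 there were 24 of the 41, against 64.2% of all genes. With counts scaled within the comparison, 15 genes had every HFD library above every Chow library, against 34.6% of all genes, and 7 every HFD library below, against 33.9% (68.5% in both directions). The median log2 fold change was 0.33 over the 41 genes and -0.03 over all genes tested. The count of 22 was 26 without Chow 19, 21 without Chow 17 and 29 without Chow 8.

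**Figure D1:**
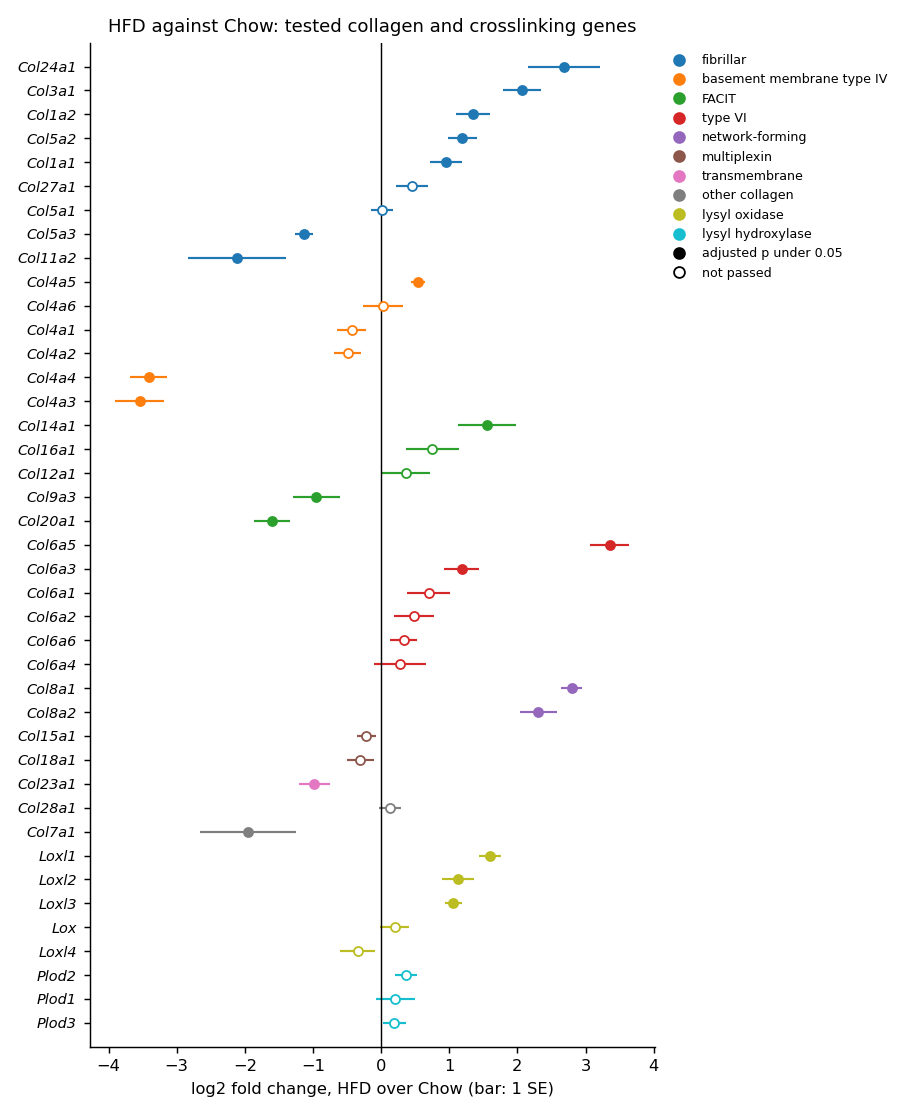
Log2 fold change, HFD over Chow, for each of the 41 tested genes (points) with 1 standard error (bars), coloured by class and sorted within it. Filled points passed an adjusted p of 0.05, and the largest values on either side are those of Col6a5 (3.35) and Col4a3 (-3.54).

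In what follows each gene's CPM is listed by library number within its group (5, 11 and 27 for HFD PCN, 23, 50 and 55 for HFD Vehicle, 4, 30 and 38 for HFD, 8, 17 and 19 for Chow). CPM are scaled over all 12 libraries, while a fold change comes from the fit of its own comparison and can differ slightly from the ratio of CPM means. Counts of genes called in a class are to be read against all genes tested in HFD against Chow. Of those 59.8% were called, 29.8% higher and 30% lower.

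Among the 11 fibrillar chains 9 were tested, of which 5 were higher in HFD than in Chow (Col1a1, Col1a2, Col3a1, Col5a2 and Col24a1), 2 lower (Col5a3 and Col11a2) and 2 did not pass (Col5a1 and Col27a1), with a median log2 fold change of 0.95. Col3a1, the chain of type III collagen, which forms thin fibrils in elastic tissues (chr1:45311538-45349706), had 6446, 7445 and 6990.2 CPM in HFD, against 2024, 1758 and 1064 CPM in Chow. The 3 HFD libraries lay above the 3 Chow libraries with a wide gap, and Col3a1 was 4.19-fold higher (log2 fold change 2.07, SE 0.28, adjusted p = 0.000412). Col3a1 had 4258, 2940.5 and 4423 CPM in HFD PCN, against 3838, 1621 and 5963 CPM in HFD Vehicle. The HFD PCN libraries lay within the range of HFD Vehicle, whose library 50 was near the Chow level.

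Col1a1 and Col1a2 encode the chains of type I collagen, the main fibril of connective tissue. Col1a1 (chr11:94936224-94953042) had 668, 922 and 802 CPM in HFD, against 442, 489 and 267 CPM in Chow. It had 864, 606 and 1281 CPM in HFD PCN, against 759, 712 and 1078 CPM in HFD Vehicle. Every HFD library was above every Chow library (log2 fold change 0.95, SE 0.24, adjusted p = 0.00885), and HFD PCN spanned the range of HFD Vehicle on both sides. Col1a2 (chr6:4504814-4541544) had 1655, 2132 and 1916 CPM in HFD, against 782, 903 and 490.2 CPM in Chow. It was 2.54-fold higher in HFD with no overlap (log2 fold change 1.35, SE 0.25, adjusted p = 0.00187). Col1a2 had 1787, 1189 and 2010.2 CPM in HFD PCN, against 1508, 1016 and 2035 CPM in HFD Vehicle, again with overlapping groups.

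Type V collagen nucleates and thins type I fibrils, and its 3 chains differed from one another between the diets. Col5a2 (chr1:45374321-45503282), which lies tail to tail with Col3a1 at a distance of 24614 bases, had 789, 844 and 825 CPM in HFD, against 458, 345 and 243 CPM in Chow. It was 2.28-fold higher in HFD, with no overlap (log2 fold change 1.19, SE 0.22, adjusted p = 0.00181). Col5a1, the chain found in nearly all type V trimers (chr2:27886425-28039514), had 496, 534 and 525 CPM in HFD, against 571, 538 and 388 CPM in Chow. The groups overlapped and the change did not pass (log2 fold change 0.012, SE 0.16, adjusted p = 0.953), with a sign that turned under other settings. Col5a3, a less widespread type V chain (chr9:20770050-20815067), had 416, 375 and 365 CPM in HFD, against 828, 766 and 864 CPM in Chow. It was 2.19-fold lower in HFD (log2 fold change -1.13, SE 0.13, adjusted p = 0.000186), and no HFD library reached the lowest Chow library.

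In the injected groups Col5a2 had 474, 425 and 592 CPM in HFD PCN, against 468, 299 and 641 CPM in HFD Vehicle. Col5a1 had 434, 609.8 and 526 CPM in HFD PCN, against 487, 805 and 579 CPM in HFD Vehicle. Col5a3 had 193, 444 and 265 CPM in HFD PCN, against 291, 848 and 351 CPM in HFD Vehicle. For each of these chains HFD PCN and HFD Vehicle overlapped, and HFD Vehicle 50 was the lowest of its group for Col5a2 and the highest for Col5a1 and Col5a3.

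The other fibrillar chains were low. Col24a1 had 1.01, 1.26 and 0.642 CPM in HFD, against 0.0743, 0.159 and 0.227 CPM in Chow. It was higher in HFD (log2 fold change 2.69, SE 0.53, adjusted p = 0.00275) but rests on few counts. These were 28, 36 and 11 in HFD and 1, 2 and 2 in Chow. Col24a1 met the filter on low counts only through HFD, where it is high, so its call gives no support for a rise. Without HFD 30 or without HFD 4 it no longer passed the filter. It was not called in 1 fit of all 12 libraries or with a filter of 1 CPM in 3 libraries. Col24a1 had 3.69, 0.368 and 11.1 CPM in HFD PCN, against 0.964, 1.89 and 0.370 CPM in HFD Vehicle, with HFD PCN 27 far above the rest. Col11a2, a cartilage chain, had 1.52, 1.75 and 2.45 CPM in HFD, against 2.3, 17.7 and 3.4 CPM in Chow. Its fall in HFD (log2 fold change -2.12, SE 0.72, adjusted p = 0.0323) rested on Chow 17, since without that library the log2 fold change was -0.61 with an adjusted p of 0.150. Without HFD 30, 38 or 4 the adjusted p was 0.0890, 0.0628 or 0.101. Col11a2 had 2.65, 3.21 and 3.95 CPM in HFD PCN, against 2.82, 21.4 and 6.93 CPM in HFD Vehicle, and HFD Vehicle 50 was the highest library of all 12. Col27a1, a chain of cartilage and other tissues, did not pass (log2 fold change 0.45, SE 0.24, adjusted p = 0.137), but was higher without Chow 19 (log2 fold change 0.77 with an adjusted p of 0.00798).

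All 6 type IV chains were tested in HFD against Chow. Col4a3 and Col4a4 were lower, Col4a5 was higher, and Col4a1, Col4a2 and Col4a6 did not pass, with a median log2 fold change of -0.46. Col4a1 and Col4a2 form the basement membrane network found in nearly all tissues. Col4a1 (chr8:11198423-11312826) had 2341, 2137 and 2175 CPM in HFD, against 3329, 3207 and 2179 CPM in Chow. Chow 19 lay within the HFD values and the other Chow libraries above them (log2 fold change -0.43, SE 0.21, adjusted p = 0.114). Col4a2 (chr8:11312805-11449287) had 1338, 1265 and 1264 CPM in HFD, against 2031, 1912 and 1334 CPM in Chow, in the same arrangement (log2 fold change -0.49, SE 0.19, adjusted p = 0.0573). With counts scaled within the comparison, however, every HFD library of Col4a2 was below every Chow library. Col4a2 passed by DESeq2, by limma-voom, with upper quartile scaling and with a filter of 1 CPM in 3 libraries. Without Chow 19 both genes were lower in HFD, with a log2 fold change of -0.58 with an adjusted p of 0.00799 for Col4a1 and of -0.63 with an adjusted p of 0.00361 for Col4a2. Col4a1 had 1634, 2135 and 2450.1 CPM in HFD PCN, against 1964, 2860.0 and 2222 CPM in HFD Vehicle. Col4a2 had 1025, 1353 and 1715 CPM in HFD PCN, against 1218, 1968 and 1341 CPM in HFD Vehicle. For both chains HFD Vehicle 50 was the highest injected library.

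Col4a3 and Col4a4 are the chains known from the glomerular basement membrane of the kidney, where they assemble with Col4a5. Col4a3 (chr1:82586921-82722059) had 1.23, 0.736 and 0.350 CPM in HFD, against 8.84, 8.58 and 10.2 CPM in Chow. Col4a4 (chr1:82448423-82586849) had 1.3, 2.1 and 1.23 CPM in HFD, against 12.8, 17.3 and 18.8 CPM in Chow. In both genes the Chow libraries lay far above every HFD library, so that Col4a3 was 11.7-fold lower (log2 fold change -3.54, SE 0.36, adjusted p = 8.84e-05) and Col4a4 10.7-fold lower (log2 fold change -3.41, SE 0.27, adjusted p = 2.86e-05). Col4a3 had 1.0, 2.0 and 0.556 CPM in HFD PCN, against 0.887, 7.21 and 0.265 CPM in HFD Vehicle, and HFD Vehicle 50 alone was near the Chow level. Col4a5 (chrX:141475385-141689234) had 36.1, 35.4 and 31.8 CPM in HFD, against 23, 24.3 and 21.4 CPM in Chow and was 1.46-fold higher in HFD without overlap (log2 fold change 0.54, SE 0.11, adjusted p = 0.00303). Col4a5 had 48.4, 32.4 and 43.6 CPM in HFD PCN, against 39.2, 39.6 and 30.3 CPM in HFD Vehicle. Col4a6, head to head with Col4a5 on chromosome X at a distance of 1308 bases, had 5.32, 6.48 and 2.98 CPM in HFD, against 4.53, 4.37 and 5.33 CPM in Chow. It did not pass (log2 fold change 0.033, SE 0.29, adjusted p = 0.930), so the members of this pair, unlike Col4a3 and Col4a4, were not both called. Col4a6 had 16.7, 8.31 and 11.3 CPM in HFD PCN, against 6.83, 13.3 and 2.38 CPM in HFD Vehicle, with overlap.

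Among the 6 type VI chains Col6a3 and Col6a5 were higher in HFD than in Chow and the other 4 did not pass, with a median log2 fold change of 0.59. Col6a1 and Col6a2 encode the short chains that pair with a long chain such as the product of Col6a3, from whose end the fragment endotrophin is released. Col6a1 (chr10:76708792-76726168) had 907, 901 and 890.1 CPM in HFD, against 828, 493 and 297 CPM in Chow. Every HFD library was above every Chow library, yet the spread within Chow was wide and the change did not pass (log2 fold change 0.70, SE 0.31, adjusted p = 0.0851). Col6a2 (chr10:76595762-76623630) had 699, 715 and 692 CPM in HFD, against 731, 451 and 286 CPM in Chow, with Chow 8 above the HFD libraries (log2 fold change 0.48, SE 0.29, adjusted p = 0.180). Without Chow 8 both were higher in HFD, at a log2 fold change of 1.15 with an adjusted p of 0.00147 for Col6a1 and 0.89 with an adjusted p of 0.00320 for Col6a2. Both also passed by edgeR with no filter on low counts, and Col6a1 by DESeq2. Col6a3 (chr1:90765923-90843971) had 1091, 1112 and 1149 CPM in HFD, against 645, 494 and 299.8 CPM in Chow and was 2.27-fold higher without overlap (log2 fold change 1.18, SE 0.25, adjusted p = 0.00414).

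In the injected groups Col6a1 had 625, 814 and 582 CPM in HFD PCN, against 622, 738 and 771 CPM in HFD Vehicle. Col6a2 had 436, 643 and 509 CPM in HFD PCN, against 515, 695 and 653 CPM in HFD Vehicle. Col6a3 had 601, 649 and 543 CPM in HFD PCN, against 839.8, 478 and 881 CPM in HFD Vehicle. The groups overlapped for each of the 3 chains, and HFD Vehicle 50 was the lowest library of its group for Col6a3 but not for Col6a1 or Col6a2.

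Col6a5 showed the largest rise of the 41 tested genes by fold. It is one of the alternative long chains, encoded beside Col6a4 and Col6a6 on the same strand of chromosome 9 at distances of 28810 and 27917 bases. Col6a5 (chr9:105856078-105960643) had 357, 525 and 329 CPM in HFD, against 54.3, 33 and 27.9 CPM in Chow. Even the lowest HFD library was several times the highest Chow library (10.2-fold higher, log2 fold change 3.35, SE 0.29, adjusted p = 4.17e-05). Its neighbours did not pass, with log2 fold changes of 0.33 (SE 0.20) for Col6a6 and 0.28 (SE 0.38) for Col6a4, and Col6a6 was higher only when Chow 8 was left out (0.58 with an adjusted p of 0.0131). Col6a5 had 307, 196 and 352 CPM in HFD PCN, against 418, 86.7 and 198 CPM in HFD Vehicle, with HFD Vehicle 50 lowest. Col6a4 had 1.15, 0.684 and 1.28 CPM in HFD PCN, against 1.0, 0.811 and 0.317 CPM in HFD Vehicle.

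Of the 9 FACIT chains 5 were tested in HFD against Chow. Col14a1 was higher, Col9a3 and Col20a1 were lower, and Col12a1 and Col16a1 did not pass. Col14a1, a FACIT that binds type I fibrils and regulates their diameter (chr15:55307750-55520803), had 174, 229.8 and 166 CPM in HFD, against 103, 61.4 and 24.3 CPM in Chow. Although Chow varied several-fold, the groups did not overlap (log2 fold change 1.55, SE 0.42, adjusted p = 0.0126). Col12a1, a FACIT of tissues under mechanical load (chr9:79598991-79718831), had 62.2, 73.6 and 83.2 CPM in HFD, against 91.6, 45.5 and 28.1 CPM in Chow. Chow 8 was above every HFD library, and the change did not pass (log2 fold change 0.36, SE 0.35, adjusted p = 0.401) unless that library was left out (log2 fold change 0.94 with an adjusted p of 0.00446). Col16a1, which links fibrils to other matrix, did not pass either (log2 fold change 0.75, SE 0.39, adjusted p = 0.129), but did without Chow 8 (log2 fold change 1.43 with an adjusted p of 0.000496). Col16a1 also passed by edgeR with no filter on low counts. Col20a1 had 2.28, 2.87 and 3.5 CPM in HFD, against 6.46, 8.1 and 10.9 CPM in Chow, without overlap (log2 fold change -1.60, SE 0.26, adjusted p = 0.00111).

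Col9a3, a cartilage FACIT, had 0.832, 0.876 and 1.23 CPM in HFD, against 1.26, 2.46 and 1.7 CPM in Chow. It passed narrowly (log2 fold change -0.95, SE 0.34, adjusted p = 0.0410), and the call was lost without Chow 17 (adjusted p = 0.156), Chow 19 (0.0685), HFD 30 (0.136), HFD 38 (0.0574) or HFD 4 (0.149), all by edgeR, and by DESeq2. In the injected groups Col14a1 had 157, 140.4 and 118 CPM in HFD PCN, against 94.1, 85.2 and 160.0 CPM in HFD Vehicle. Col12a1 had 57.4, 95.2 and 119.7 CPM in HFD PCN, against 34.3, 39.9 and 68.7 CPM in HFD Vehicle. HFD PCN 5 was below HFD Vehicle 55 for Col12a1 and Col14a1 alike, so the groups overlapped. Col9a3 had 0.860, 1.21 and 1.5 CPM in HFD PCN, against 1.39, 4.68 and 1.8 CPM in HFD Vehicle, with HFD Vehicle 50 highest, and Col20a1 had 4.41, 6.0 and 6.5 CPM in HFD PCN, against 4.09, 9.64 and 5.13 CPM in HFD Vehicle.

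Type VIII collagen forms hexagonal networks and is known from vessel walls and the eye. Both of its chains were higher in HFD. Col8a1 (chr16:57624258-57754737) had 72.8, 83.9 and 67.5 CPM in HFD, against 10.5, 8.82 and 12.1 CPM in Chow. It had the smallest adjusted p of the 41 genes, at 6.95-fold higher (log2 fold change 2.80, SE 0.15, adjusted p = 8.05e-06). Col8a2 (chr4:126286793-126314330) had 4.81, 7.43 and 5.25 CPM in HFD, against 1.19, 1.19 and 1.02 CPM in Chow and was 4.95-fold higher without overlap (log2 fold change 2.31, SE 0.27, adjusted p = 0.000197). Col8a1 had 58.7, 33.6 and 29.1 CPM in HFD PCN, against 33.8, 13.5 and 119 CPM in HFD Vehicle, and Col8a2 had 4.8, 1.84 and 1.89 CPM in HFD PCN, against 2.04, 3.42 and 1.9 CPM in HFD Vehicle. HFD Vehicle 55 was the highest of all 12 libraries for Col8a1, and HFD Vehicle 50 was near the Chow level.

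The multiplexins Col15a1 and Col18a1 are basement membrane proteoglycans whose ends are cleaved into restin and endostatin. Col15a1 (chr4:47208161-47313167) had 469, 496 and 501 CPM in HFD, against 612, 578 and 462 CPM in Chow. Col18a1 (chr10:77052178-77166548) had 215, 204 and 208 CPM in HFD, against 305, 278 and 171 CPM in Chow. The groups overlapped in both through Chow 19, and neither passed (log2 fold change -0.22, SE 0.14, adjusted p = 0.222 for Col15a1 and log2 fold change -0.31, SE 0.20, adjusted p = 0.208 for Col18a1). Without Chow 19 both were lower in HFD, at a log2 fold change of -0.30 with an adjusted p of 0.0366 for Col15a1 and -0.50 with an adjusted p of 0.00380 for Col18a1. Col15a1 had 191, 397 and 186 CPM in HFD PCN, against 300.1, 659 and 282 CPM in HFD Vehicle. Col18a1 had 126, 198 and 143 CPM in HFD PCN, against 192, 392 and 163 CPM in HFD Vehicle. HFD Vehicle 50 was the highest of the 12 libraries for both genes.

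Of the transmembrane chains only Col23a1 was tested. It had 4.49, 3.12 and 4.14 CPM in HFD, against 6.98, 9.05 and 6.35 CPM in Chow and was 1.98-fold lower in HFD without overlap (log2 fold change -0.98, SE 0.23, adjusted p = 0.00599). Col23a1 had 3.91, 5.63 and 5.28 CPM in HFD PCN, against 5.59, 6.4 and 4.02 CPM in HFD Vehicle. Col7a1, the anchoring fibril collagen of skin, had 2.17, 2.03 and 2.28 CPM in HFD, against 2.15, 18 and 3.74 CPM in Chow. Its fall (log2 fold change -1.95, SE 0.70, adjusted p = 0.0402) rested on Chow 17, without which the log2 fold change was -0.45 with an adjusted p of 0.239, and the call was also lost without HFD 30, 38 or 4 (adjusted p = 0.103, 0.0937 or 0.102). Col7a1 had 2.08, 3.16 and 3.45 CPM in HFD PCN, against 2.58, 23.2 and 7.94 CPM in HFD Vehicle. Chow 17 and HFD Vehicle 50 were the highest libraries for Col7a1 as for Col11a2, and neither gene passed by limma-voom. Col28a1, a collagen known from peripheral nerve, had 17.5, 13.7 and 14.1 CPM in HFD, against 15.3, 13.6 and 11.1 CPM in Chow, with overlap, and did not pass (log2 fold change 0.13, SE 0.16, adjusted p = 0.507). Col28a1 had 13.1, 14.6 and 18.2 CPM in HFD PCN, against 12.8, 15.4 and 15.8 CPM in HFD Vehicle.

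**Figure D2:**
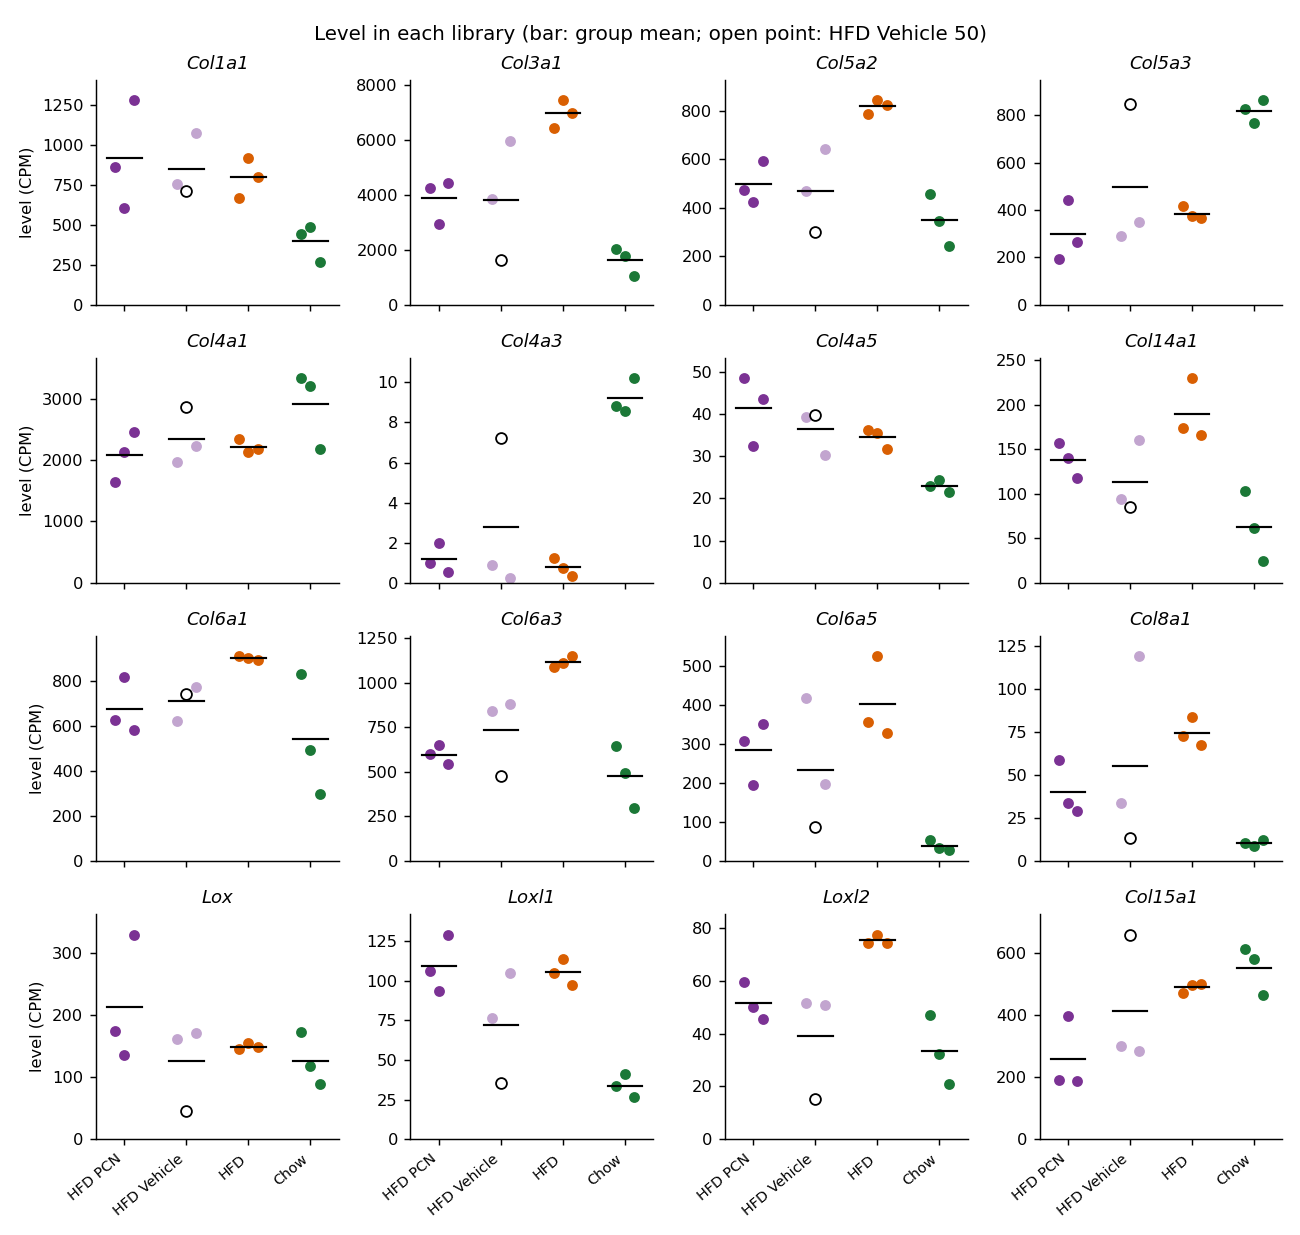
Level in CPM (vertical axes, starting at 0) of 16 genes in each library, by group, with the group mean as a bar. Open points are HFD Vehicle 50, which lies near the Chow libraries for Col5a3 and Col4a3. Among the genes shown, HFD and Chow overlap only for Col4a1, Lox and Col15a1.

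Among the 5 lysyl oxidases Loxl1, Loxl2 and Loxl3 were higher in HFD than in Chow, and Lox and Loxl4 did not pass, with a median log2 fold change of 1.06. Loxl1, known for its part in elastic fibres (chr9:58287738-58313186), had 105, 114 and 97.3 CPM in HFD, against 33.8, 40.9 and 26.7 CPM in Chow. It was 3.01-fold higher without overlap (log2 fold change 1.59, SE 0.16, adjusted p = 8.99e-05). Loxl2, which crosslinks type IV collagen (chr14:69609068-69695834), had 74.4, 77.7 and 74.3 CPM in HFD, against 47, 32.3 and 20.7 CPM in Chow and was 2.19-fold higher (log2 fold change 1.13, SE 0.24, adjusted p = 0.00402). Loxl3 (chr6:83034173-83052562) had 23, 25.2 and 25.5 CPM in HFD, against 11.1, 12.5 and 10.5 CPM in Chow and was 2.09-fold higher (log2 fold change 1.06, SE 0.12, adjusted p = 0.000187). Htra2 on the opposite strand covers 11.6% of the Loxl3 exon bases, and no source used here says whether reads were counted by strand, so the Loxl3 value is uncertain.

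Lox, the founding member and the main crosslinker of fibrillar collagen, had 145, 155 and 148 CPM in HFD, against 172, 118 and 88.5 CPM in Chow. The Chow libraries spanned the HFD values on both sides (log2 fold change 0.20, SE 0.21, adjusted p = 0.438), although without Chow 8 Lox was higher in HFD (log2 fold change 0.48 with an adjusted p of 0.00956). Loxl4 did not pass (log2 fold change -0.35, SE 0.25, adjusted p = 0.268). In the injected groups Lox had 173, 135 and 329 CPM in HFD PCN, against 160.4, 45.8 and 171 CPM in HFD Vehicle. Loxl1 had 106, 93.9 and 129 CPM in HFD PCN, against 76.4, 35.4 and 105 CPM in HFD Vehicle. Loxl2 had 59.8, 50.0 and 45.6 CPM in HFD PCN, against 51.6, 15 and 50.8 CPM in HFD Vehicle. HFD Vehicle 50 was the lowest of the 12 libraries for Lox and Loxl2, and HFD PCN 27 the highest for Lox and Loxl1. Loxl3 had 26, 17.8 and 28.7 CPM in HFD PCN, against 27.4, 14.6 and 32.4 CPM in HFD Vehicle.

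None of the lysyl hydroxylases passed in HFD against Chow. Plod1 (chr4:147909753-147936767), which acts on helical lysines, had 183, 186 and 185 CPM in HFD, against 130.4, 236 and 96.3 CPM in Chow. Chow 17 was above and Chow 8 and 19 were below every HFD library (log2 fold change 0.21, SE 0.29, adjusted p = 0.552). Without Chow 17 Plod1 was higher in HFD (log2 fold change 0.67 with an adjusted p of 0.00715), and without Chow 19 the value was -0.012. Plod2 (chr9:92542223-92608428), which modifies the telopeptide lysines of fibrillar collagens, had 51.8, 47.7 and 57.1 CPM in HFD, against 37.6, 47.6 and 32.2 CPM in Chow. HFD 30 and Chow 17 were all but equal (log2 fold change 0.37, SE 0.16, adjusted p = 0.0723), and without Chow 17 Plod2 was higher (log2 fold change 0.55 with an adjusted p of 0.00913). Plod2 also passed by edgeR with no filter on low counts and in 1 fit of all 12 libraries. Plod3 had 128, 119 and 129.7 CPM in HFD, against 129.5, 111 and 78.5 CPM in Chow, with overlap (log2 fold change 0.19, SE 0.17, adjusted p = 0.345), and 11.9% of its exon bases are covered by Znhit1 or a microRNA, so its value is uncertain. In the injected groups Plod1 had 186, 153 and 222 CPM in HFD PCN, against 175, 271 and 239 CPM in HFD Vehicle. Plod2 had 44.3, 41.3 and 45.9 CPM in HFD PCN, against 41.6, 44.1 and 51 CPM in HFD Vehicle. Plod3 had 99.5, 108 and 120.3 CPM in HFD PCN, against 95.3, 126 and 122 CPM in HFD Vehicle. These groups overlapped for each of the 3 genes.

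The 11 genes not tested in HFD against Chow were low or not listed. Col9a1 was not in that table. Col26a1 had 42 counts over the HFD libraries and 0 over the Chow libraries, so it was at least 6.66-fold higher, taking 3 counts over the Chow group as the floor. Col10a1, a growth plate chain, had 13 counts in HFD and 1 in Chow, which per depth is 6.19 times as much (95% interval from counting error 0.929 to 263). Col13a1, a transmembrane collagen of the neuromuscular junction, had 7 counts in HFD and 34 in Chow. It passed the filter when HFD 30, HFD 38, HFD 4 or Chow 8 was left out and was then lower in HFD. The log2 fold changes were -4.32, -2.97, -3.19 and -3.79 in that order, with adjusted p of 0.00961, 0.0163, 0.0275 and 0.00114 by edgeR. In these refits Col13a1 met the filter only through Chow 17 and Chow 19, where it is high, at 17 and 12 counts. Without Chow 17 or Chow 19 it was again not tested, so these p-values give no support for a fall. Col13a1 and Col26a1 also passed by DESeq2 and by edgeR with no filter on low counts. Intervals and floors cover counting error only. Col2a1, Col9a2, Col11a1, Col17a1, Col19a1, Col22a1 and Col25a1 had at most 30 counts in either group.

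Levels can be compared between genes only per transcript length, here as RPKM, the CPM divided by the kilobases of exon. Col3a1 was the most abundant of the 52 genes in HFD PCN (395 ± 82.8 RPKM, mean ± SD, n = 3), in HFD Vehicle (388 ± 221) and in HFD (709 ± 50.9), whereas Col4a1 came first in Chow (389 ± 84.6). In HFD Vehicle the lead over Col4a1 (315 ± 61.8 RPKM) was within the spread, and in library 50 Col4a1 at 383 RPKM and Col4a2 at 297 RPKM exceeded Col3a1 at 165 RPKM. In Chow Col4a2 followed at 266 ± 56.4 RPKM and Col3a1 at 165 ± 50.5 RPKM. The next in order, Col6a1 at 123 ± 61.3 RPKM and Col5a3 at 120 ± 7.28 RPKM in Chow, did not differ from Col3a1 or from each other beyond their spread. In HFD Col3a1 was followed by Col4a1 at 297 ± 14.5 RPKM, Col6a1 at 205 ± 1.95 RPKM and Col4a2 at 195 ± 6.44 RPKM.

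Of the summed collagen RPKM of a library, fibrillar chains took 40.6% to 52.4% in HFD PCN, 33.8% to 53.3% in HFD Vehicle, 49.8% to 53.7% in HFD and 31% to 34.2% in Chow. Type IV chains took 23.9% to 30.4% in HFD PCN, 23.9% to 38.2% in HFD Vehicle, 20.3% to 23.7% in HFD and 41% to 44.3% in Chow. HFD and Chow did not overlap in either share. The shares of a library depend on one another, and the summed type IV level itself overlapped, at 484 to 522 RPKM in HFD and 500.1 to 759 RPKM in Chow. HFD Vehicle 50 had the lowest fibrillar share and the highest type IV share of the 6 injected libraries. Type VI chains took 14.3% to 20.7% in HFD PCN, 16.7% to 19.5% in HFD Vehicle, 18.6% to 19.3% in HFD and 11.7% to 18.4% in Chow. Multiplexins took 2.54% to 5.49% in HFD PCN, 3.21% to 8.85% in HFD Vehicle, 4.51% to 4.8% in HFD and 7.55% to 8.57% in Chow.

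**Figure D3:**
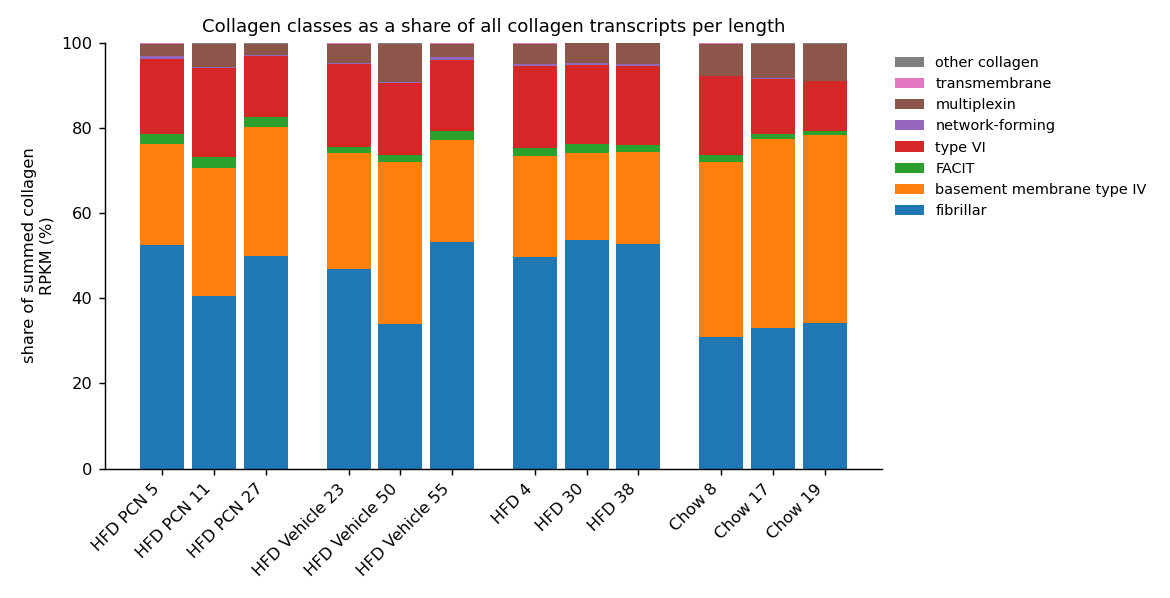
Share of the summed collagen RPKM (vertical axis, percent) taken by each collagen class in each of the 12 libraries. Fibrillar chains (blue) average 52.0% in HFD and 32.7% in Chow, and type IV chains (orange) 21.9% in HFD and 43.1% in Chow.

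Ratios of RPKM within a library do not depend on how libraries are scaled to each other. Col3a1 over Col1a1 was 3.3, 3.24 and 2.31 in HFD PCN, 3.38, 1.52 and 3.7 in HFD Vehicle, 6.45, 5.4 and 5.83 in HFD and 3.06, 2.4 and 2.66 in Chow. HFD was above Chow in every library and also above both injected groups, which lay around the Chow values. Col1a2 over Col1a1 was 1.31, 1.22 and 1.26 in HFD, against 0.934, 0.975 and 0.968 in Chow. Col5a2 over Col5a1 was 1.41, 1.4 and 1.39 in HFD, against 0.710, 0.568 and 0.554 in Chow. The type V chain ratio Col5a3 over Col5a1 ran the other way, at 1.05, 0.877 and 0.866 in HFD and 1.81, 1.78 and 2.78 in Chow.

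Col4a1 and Col4a2, the pair whose starts overlap, kept their ratio within a narrower range than the pairs above. Col4a2 over Col4a1 was 0.707, 0.714 and 0.789 in HFD PCN, 0.699, 0.776 and 0.680 in HFD Vehicle, 0.645, 0.668 and 0.655 in HFD and 0.688, 0.673 and 0.690 in Chow. The HFD and Chow values of that ratio did not overlap, though the means differed by little (0.656 in HFD and 0.684 in Chow). Col6a5 over Col6a1 was 0.183, 0.271 and 0.172 in HFD, against 0.0305, 0.0311 and 0.0437 in Chow. The summed lysyl oxidases over the summed fibrillar chains was 0.103, 0.107 and 0.128 in HFD PCN, against 0.0943, 0.0456 and 0.0764 in HFD Vehicle, with no overlap. The same ratio was 0.0747, 0.0687 and 0.0675 in HFD, against 0.102, 0.0870 and 0.0865 in Chow. In all, 9 ratios were computed in 3 comparisons (27 in all), of which 14 showed no overlap, and the exact two-sided permutation test of 3 against 3 libraries cannot give a p under 0.1, so none can pass 0.05.

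**Figure D4:**
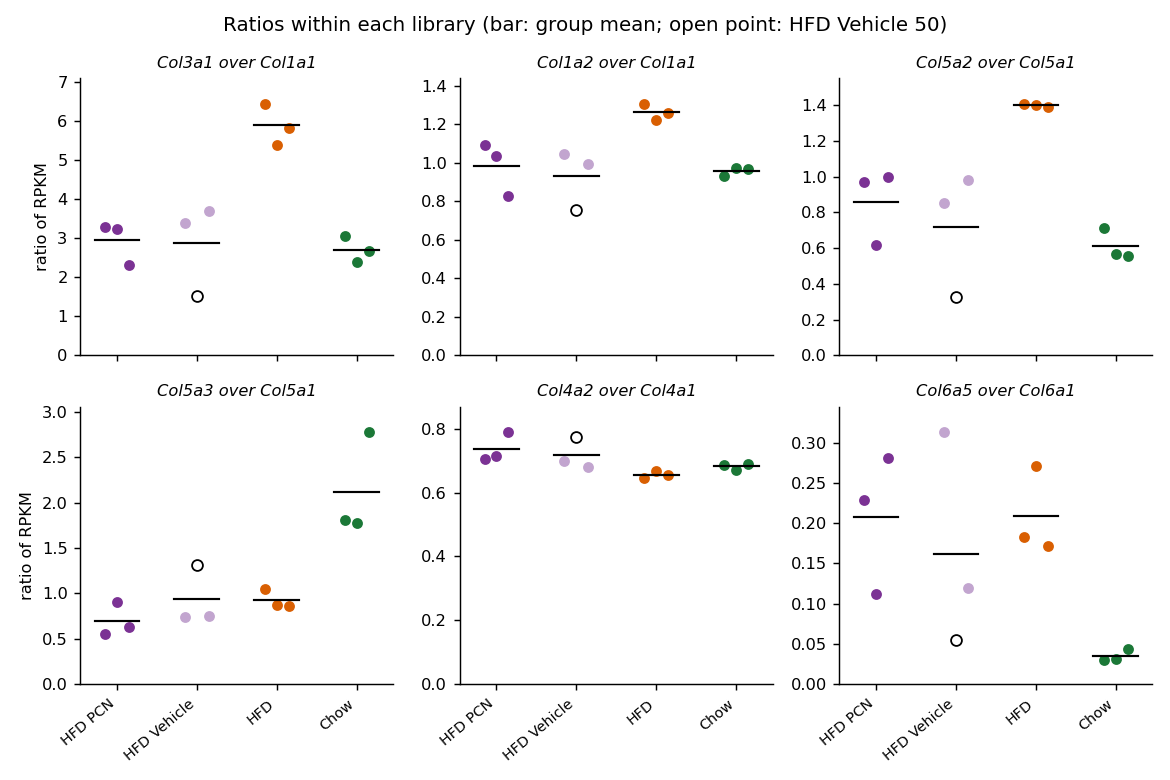
Ratio of RPKM (vertical axes, starting at 0) of 6 pairs of chains in each library, by group, with the group mean as a bar and HFD Vehicle 50 as an open point. Col3a1 over Col1a1 averages 5.89 in HFD and 2.71 in Chow, while Col4a2 over Col4a1 lies between 0.645 and 0.789 in all 12 libraries.

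The other genes of collagen biology were counted in lists set by role, to be read against the 29.8% of all tested genes that were higher in HFD and the 30% that were lower, as are the marker lists after them. All of these lists were set with earlier results of these data known. Of 14 tested genes of collagen folding and modification 8 were higher in HFD than in Chow and 4 lower, with a median log2 fold change of 0.44. The examples with the smallest p were the chaperone Fkbp10 (log2 fold change 1.44, SE 0.11, adjusted p = 2.92e-05), the galactosyltransferase Colgalt1 (log2 fold change 1.74, SE 0.16, adjusted p = 5.17e-05) and P3h3, of the prolyl hydroxylase family (log2 fold change 1.08, SE 0.12, adjusted p = 0.000154). Of 10 tested genes of procollagen processing and secretion 5 were higher and 0 lower, led by Pcolce, which enhances removal of the C-terminal propeptide (log2 fold change 2.44, SE 0.16, adjusted p = 1.33e-05), and Bmp1, the protease that removes it (log2 fold change 0.63, SE 0.10, adjusted p = 0.000970). Of 12 genes of collagen degradation 9 were higher and 3 lower, with a median of 2.06. They included the protease inhibitor Timp1 (log2 fold change 4.99, SE 0.17, adjusted p = 2.65e-06), the collagen-degrading cathepsin Ctsk (log2 fold change 5.13, SE 0.33, adjusted p = 1.40e-05) and the gelatinase Mmp2 (log2 fold change 2.83, SE 0.19, adjusted p = 1.51e-05), while the inhibitors Timp4 (log2 fold change -3.43, SE 0.24, adjusted p = 1.76e-05) and Timp3 (log2 fold change -1.58, SE 0.13, adjusted p = 3.16e-05) and the gelatinase Mmp9 (log2 fold change -0.79, SE 0.29, adjusted p = 0.0419) were the 3 that were lower.

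Of 8 tested collagen receptors 2 were higher and 4 lower, among them Lair1, an inhibitory receptor of immune cells (log2 fold change 4.39, SE 0.23, adjusted p = 7.33e-06), Ddr1, a receptor tyrosine kinase (log2 fold change -1.06, SE 0.11, adjusted p = 9.57e-05), and Itga1, the alpha chain of an integrin that binds collagen (log2 fold change -1.21, SE 0.13, adjusted p = 0.000125). Of 14 basement membrane partners 1 was higher and 8 lower, with a median of -0.76. Lama5 (log2 fold change -2.05, SE 0.21, adjusted p = 8.96e-05), Lamb2 (log2 fold change -0.92, SE 0.12, adjusted p = 0.000303) and Lamc3 (log2 fold change -1.06, SE 0.16, adjusted p = 0.000745), which encode laminin chains, were lower, and Lama2, a laminin chain known from muscle, was the 1 that was higher (log2 fold change 0.87, SE 0.20, adjusted p = 0.00667). Of 16 tested genes for transforming growth factor beta ligands, receptors and matrix targets 6 were higher and 6 lower. In none of these lists did a gene pass in the other 2 comparisons.

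Markers of cell types moved with the diet as well. Of 9 macrophage markers 8 were higher and 1 lower in HFD, with a summed level of 11334 to 12779 CPM in HFD and 584 to 1553 CPM in Chow. Of 11 markers of progenitors and fibroblasts 7 were higher and 0 lower, at 2291 to 2696 CPM in HFD and 837 to 1484 CPM in Chow. Of 6 myofibroblast markers 4 were higher and 0 lower, at 1234 to 1413 CPM in HFD and 283 to 778 CPM in Chow, while the contractile gene Acta2 had a log2 fold change of -1.04 and did not pass. Of 8 adipocyte markers 7 were lower, of 8 endothelial markers all 8 were lower and of 6 mural markers 4 were lower in HFD. The endothelial sum was 508 to 514 CPM in HFD and 1399 to 1425 CPM in Chow, and the mural sum 449 to 484 CPM in HFD and 773 to 894 CPM in Chow. Of 7 mesothelial markers none passed, and all 3 tested Schwann cell markers and all 3 tested intestinal markers were lower, as was the 1 tested muscle marker. Of the muscle list Myh4 and Ckm were at 0 in all Chow libraries, and of the epididymal list Crisp1 and Defb1 were at 0 in all HFD libraries and Adam7 in all Chow libraries. The part of these cell types in the collagen results was not tested.

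In HFD PCN against HFD Vehicle, the comparison of PCN with its vehicle in obese mice, none of the 40 tested collagen and crosslinking genes passed. The largest estimates were a higher Col24a1 and a lower Col7a1 in HFD PCN, both low genes with wide intervals. The estimates of Col1a1, Col1a2, Col3a1, Col4a1 and Col4a2 lay between -0.18 and 0.13 on the log2 scale, while those of Col5a3 (-0.73) and Col15a1 (-0.69) were lower with intervals reaching above 0. By edgeR 0 of the 40 genes were called (background 0% of 16563 genes), and 2 had an unadjusted p under 0.05, against 1.7% (281) of all genes. Those were Col12a1 (log2 fold change 0.93, unadjusted p = 0.0400) and Col7a1 (log2 fold change -1.95, unadjusted p = 0.0383), by edgeR with an adjusted p of 0.9999 for both. DESeq2 called 1 gene in all and 0 of these, and limma-voom called 0. The groups overlapped for all 40 genes, against 6.12% of all genes without overlap.

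The 95% interval of the log2 fold change was -0.74 to 0.96 for Col1a1 (estimate 0.11), -1.25 to 1.30 for Col3a1 (0.026) and -0.67 to 0.51 for Col6a1 (-0.080). For Col4a1 it was -0.97 to 0.60 (-0.18), for Col15a1 -1.80 to 0.43 (-0.69) and for Lox -0.57 to 2.08 (0.75). Without HFD Vehicle 50 the estimate was -0.34 for Col3a1, -0.18 for Col15a1, 0.36 for Lox and -0.86 for Col7a1, and again 0 genes were called. No gene of the pathway lists passed here. Of the marker lists, the macrophage sum was 4185 to 9839 CPM in HFD PCN and 1175 to 11318 CPM in HFD Vehicle, the low end of HFD Vehicle being library 50. The mesothelial sum was 57.3 to 116 CPM in HFD PCN and 10.8 to 77.2 CPM in HFD Vehicle, with 0 of 7 markers called. Their part in the estimates was not tested.

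**Figure D5:**
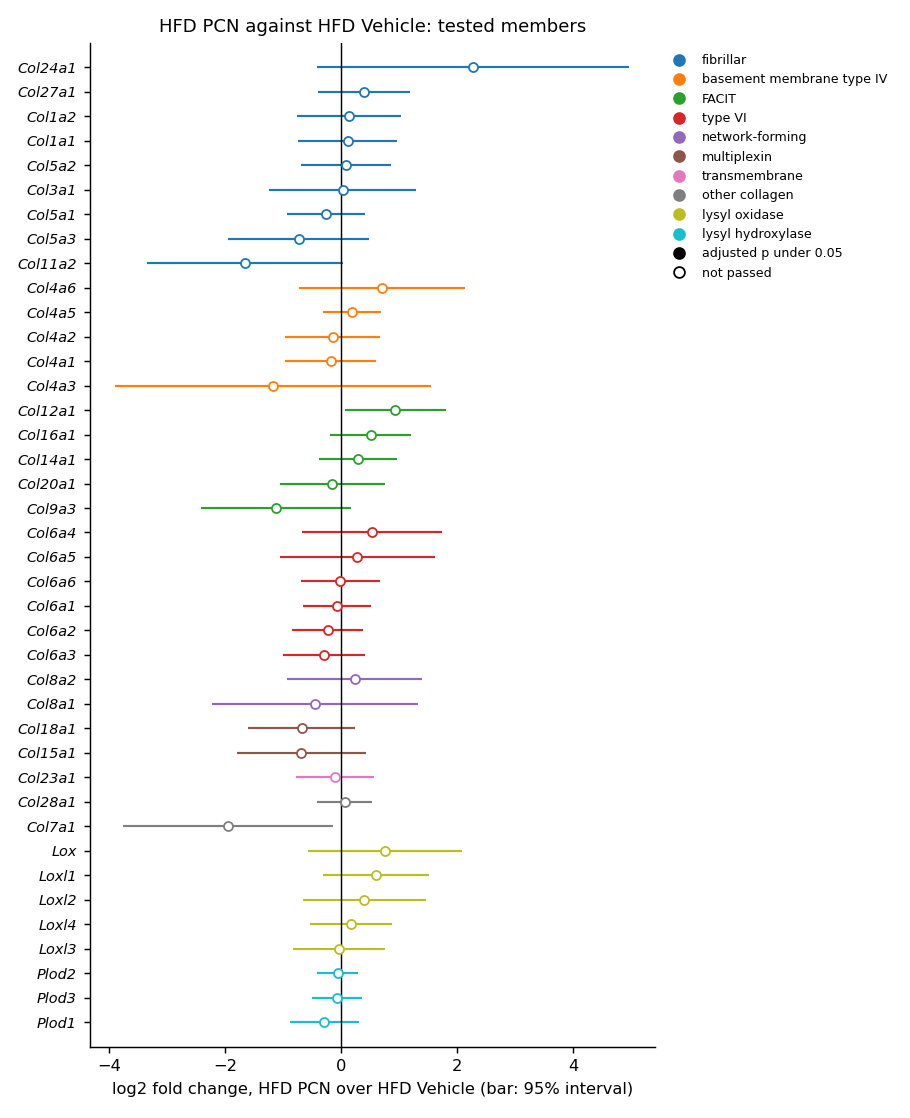
Log2 fold change, HFD PCN over HFD Vehicle, for each of the 40 tested genes (points) with its 95% interval (bars), coloured by class and sorted within it. All points are open, since none passed an adjusted p of 0.05, and the interval of Col3a1 runs from -1.25 to 1.30.

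HFD Vehicle against HFD sets injected obese mice against obese mice with no stated treatment, on genes in both tables. None of the 40 tested genes passed by edgeR (background 0% of 16781 genes). Without overlap between the groups were 6 genes on the higher side and 7 on the lower side, against 28% of all genes, and 8 genes had an unadjusted p under 0.05, against 9.77% (1639) of all genes. DESeq2 called 91 genes in all and 0 of these, and limma-voom called 0. Of the 8 genes with an unadjusted p under 0.05, 5 had higher estimates in HFD Vehicle, with a log2 fold change of 2.48 (SE 0.75) for Col11a2, 2.41 (SE 0.77) for Col7a1, 1.43 (SE 0.53) for Col9a3, 1.15 (SE 0.39) for Col20a1 and 0.75 (SE 0.25) for Loxl4. The other 3 had lower estimates, of -1.24 (SE 0.33) for Col8a2, -0.78 (SE 0.29) for Col5a2 and -0.72 (SE 0.28) for Col14a1.

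Without HFD Vehicle 50, 3 genes were lower in HFD Vehicle, against 0.416% of all genes tested (0.993% in both directions). They were Col8a2 (log2 fold change -1.55 with an adjusted p of 0.0452), Loxl2 (-0.55 with an adjusted p of 0.0274) and Col15a1 (-0.74 with an adjusted p of 0.0198), by edgeR. Col11a2 and Col7a1 fell short of the threshold with and without that library, with a log2 fold change of 2.48 for Col11a2 and 2.41 for Col7a1 with it, and 1.37 and 1.27 without it. The macrophage sum of HFD Vehicle 50 was 1175 CPM against 8618 and 11318 CPM in libraries 23 and 55, and its endothelial sum was 1689 CPM against 632 and 624 CPM. The part of these differences in the collagen values was not tested.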

How the data were processed

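RNA-seq gene counts of 12 libraries in 4 groups were used. The authors deposited 2 tables of raw whole-number counts per gene, made with HISAT2, HTSeq and DESeq2 on GRCm38 per the submitters' processing notes, which name no versions. Group labels came from the sample descriptions. Members and gene lists were chosen with earlier results of these data known.

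Counts were tested in R 4.3.3 with edgeR 4.0.16 (quasi-likelihood test, TMM scaling, default filter on low counts, Benjamini-Hochberg adjustment at 0.05, two-sided), each comparison on its own 6 libraries, and HFD Vehicle against HFD on the 28008 genes in both tables. All adjusted p-values in the text are from edgeR unless another tool is named. The procedure was tested on simulated counts with known changes, 100 genes by 2-fold and 100 by 4-fold, and all others unchanged. In HFD against Chow it called 53% of 2-fold and 89% of 4-fold changes. In the real counts of that comparison 59.8% of genes were called, which makes the adjusted threshold less strict than in the simulation. These 2 percentages therefore do not measure how often the test as applied finds a change. In HFD PCN against HFD Vehicle it called 0% and 38%, and in HFD Vehicle against HFD 1% and 48%. A lack of calls in those 2 comparisons therefore does not show that levels were equal. Named genes were every member, with library values for the main chains and the 2 smallest p per class, and up to 3 genes per pathway list. Lama2, Acta2, Timp3, Timp4 and Mmp9 were named after their values were seen. CPM were scaled by TMM over all 12 libraries, and exon lengths and coordinates (1-based) came from GENCODE vM21, which gave the deposited start and end for 51 of the 52 genes. The list symbols Ctage5, Ctgf, Fabp2, Lcn5 and Rnase9 were not matched. Ratios were computed in Python 3.11.15. Replicate pairs differed by a chi-square of 6.90 to 234 per degree of freedom, so no pair was 1 library deposited again. This measure cannot tell separate animals from repeat libraries of 1 animal. The HFD pairs were the closest, at 6.90, 8.15 and 9.45, and the pairs of the other groups were at 28.6 or more. Alternatives were DESeq2 1.42.0, limma-voom (limma 3.58.1), other scalings and filters, 1 fit of all 12 libraries, leaving out mitochondrially encoded genes and leaving out each library in turn. The authors' deposited table gave an adjusted p under 0.05 for 23 members in HFD against Chow and for 0 in HFD PCN against HFD Vehicle.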

Additional observations from a re-analysis of the deposited data

How the results depend on the processing

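In HFD against Chow the count of called collagen and crosslinking genes was 19 to 29 over all alternatives, against 22, and that over all genes 7953 to 10889, against 9699. All 22 kept their sign wherever they had a value. Across 433 refits of 31 genes (the main chains and enzymes, and the 2 smallest p per class) 4 signs changed, none of a called gene. Col5a1 was -0.083 with upper quartile scaling, -0.0039 with a filter of 1 CPM in 3 libraries and -0.12 to 0.12 when each library was left out. Plod1 was -0.012 to 0.67 when each was left out. Col4a6, which is not among the 31, was -0.0027 without Chow 17, -0.20 without HFD 30 and -0.0079 without HFD 4. Upper quartile scaling moved the median log2 fold change of all genes to -0.13. In HFD PCN against HFD Vehicle 23 of 462 refits changed sign, none of a called gene. Leaving out each library gave -0.21 to 0.34 for Col1a1, -0.34 to 0.49 for Col3a1 and -0.24 to 0.020 for Col6a1, and 0 genes called, while DESeq2 called 1 gene. In HFD Vehicle against HFD 16 of 461 refits changed sign. Leaving out each library gave -0.74 to 0.0056 for Col15a1, 0 to 3 members called and 0 to 172 genes called (the highest without HFD Vehicle 50), and DESeq2 called 91. The cause of these differences was not tested. Calls lost or gained by leaving out 1 library stand beside each gene. With 2 libraries left in a group, the spread was that shared with the other group. No paired analysis was possible because each library number occurs in 1 group only. The 10 listed genes that were filtered out in HFD against Chow had low counts.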
